A study of Mus musculus with 6 samples.

Results

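The genes described are 9 complement genes, chosen by name: the C1q subunit genes C1qa, C1qb and C1qc, the convertase and activator genes C3, C4b, Cfb and Cfp, and the anaphylatoxin receptor genes C3ar1 and C5ar1. Each name matched 1 Ensembl gene among the 41388 in each deposited table; for instance, C5ar1 is ENSMUSG00000049130 and C4b is ENSMUSG00000073418. RNA was measured by bulk sequencing in 2 macrophage populations sorted from the aortic intima of ApoE -/- mice on the C57BL/6 strain, which carry the Apoe disruption in both groups. Both were sorted as live (PI-) CD64+CD11b+ cells. The foamy gate took cells bright for the lipid stain BODIPY493/503 with high scatter, and the non-foamy gate took cells low for stain and scatter. The design text gives 6 mice after 28 weeks on a diet it calls WD, and each population has 3 libraries. The labels do not state the age of the mice or how they were divided among libraries, so p-values reflect the spread among these libraries alone, which may be technical.

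Complement is a cascade of plasma and tissue proteins that tags particles and dying cells for uptake. C1q, built from A, B and C chains, starts the classical pathway, and C4 and C2 carry it to cleavage of C3. Factor B and properdin, the products of Cfb and Cfp, drive the alternative pathway. Cleavage of C3 and C5 releases the anaphylatoxins, which act on cells through the receptors encoded by C3ar1 and C5ar1. Tissue macrophages are a main source of C1q, whereas the liver makes most plasma C3, C4 and factor B.

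Below, 3 values in a row are replicates 1 to 3 of the named set of libraries. Total counts in genes ran from 15628627 to 24619075 per library. Macrophage markers were present in all 6 libraries: all 6 genes of that list were tested, and their summed level was 11900 to 13400 CPM (counts scaled to a common library size, with TMM factors) in foamy and 6980 to 7830 CPM in non-foamy libraries. By the test, 2 of them were higher and 2 lower in foamy libraries. Most of the sum was 1 gene, Cd68, at 12200, 10800 and 11800 CPM in the foamy set and 5640, 5960 and 6200 CPM in the non-foamy set. Adgre1 went the other way, at 536, 388 and 525 against 790, 967 and 815 CPM. So did Csf1r, at 138, 134 and 124 against 238, 353 and 368 CPM. These genes were named after their values were seen. Markers of other cell types were also detected, and none of these lists had a gene at 0 in all libraries. Fibroblast markers (7 genes) summed to 6.69, 3.12 and 171 CPM in the foamy set and to 130, 13.5 and 307 CPM in the non-foamy set. Monocyte markers (6 genes) summed to 24.3 to 41.1 CPM in the foamy set and 416 to 551 CPM in the non-foamy set, with 4 genes called lower and none higher in foamy. Smooth muscle markers (6 genes) summed to 3.80, 6.02 and 31.8 CPM in the foamy set and to 27.7, 4.24 and 11.2 CPM in the non-foamy set. Endothelial markers (6 genes) reached at most 16.4 CPM in sum, neutrophil markers (6 genes) at most 68.7 CPM. Lymphocyte markers (7 genes) reached at most 8.12 CPM in any library. In the neutrophil list 1 gene was called higher and 1 lower in foamy libraries. In the lymphocyte list the 1 gene tested was called higher.

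The promoters shown are those of a pair of C1q genes and of both receptors, because the C1q genes form 1 gene cluster that holds C1qb, the gene of highest level, while the receptor genes took opposite signs between the groups. Each runs over the 250 bases before the RefSeq start on GRCm38.p6, 5′ to 3′ on the gene's minus strand. The windows are chr4:136886201-136886450 for C1qb, chr4:136892915-136893164 for C1qc, chr6:122856158-122856407 for C3ar1 and chr7:16259339-16259588 for C5ar1. The Ensembl genes of C1qc, C3ar1 and C5ar1 reach to 136893065, 122856161 and 16259540, which lie inside these windows. Capitals mark the motif matches described next.
C1qb: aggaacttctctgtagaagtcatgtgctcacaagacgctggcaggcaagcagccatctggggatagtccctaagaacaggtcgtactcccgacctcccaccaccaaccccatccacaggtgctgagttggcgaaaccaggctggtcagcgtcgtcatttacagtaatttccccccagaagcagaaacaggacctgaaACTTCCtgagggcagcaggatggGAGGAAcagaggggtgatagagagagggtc
C1qc: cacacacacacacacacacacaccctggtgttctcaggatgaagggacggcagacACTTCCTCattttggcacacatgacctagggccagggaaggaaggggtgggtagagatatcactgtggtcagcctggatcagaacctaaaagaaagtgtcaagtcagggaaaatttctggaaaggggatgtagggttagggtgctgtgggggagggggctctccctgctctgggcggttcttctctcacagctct
C3ar1: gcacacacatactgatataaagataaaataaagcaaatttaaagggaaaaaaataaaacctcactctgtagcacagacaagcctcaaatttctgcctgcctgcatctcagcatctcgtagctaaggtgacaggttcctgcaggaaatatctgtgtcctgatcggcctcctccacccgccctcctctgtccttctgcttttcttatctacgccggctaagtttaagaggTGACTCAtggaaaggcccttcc
C5ar1: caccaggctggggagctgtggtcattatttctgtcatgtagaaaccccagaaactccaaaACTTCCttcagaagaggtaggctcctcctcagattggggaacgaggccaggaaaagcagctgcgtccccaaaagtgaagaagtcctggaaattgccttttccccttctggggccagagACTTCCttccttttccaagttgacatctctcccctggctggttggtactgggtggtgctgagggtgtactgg

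A match to these letters is a description of the window and not a binding site. RefSeq windows were found for 6 of the 9 genes, and 5 motifs were searched on both strands. The ETS letters GGAAGT stood in 3 of the 6 windows, those of C1qb, C1qc and C5ar1, against 19.7% of 32851 windows of the same length. C5ar1 held 2 of them, from -190 to -185 and from -72 to -67 relative to the RefSeq start, both within the Ensembl gene. The PU.1 letters GAGGAA stood in C1qb, from -30 to -25, and in C1qc, where they overlap the ETS match; 23.3% of all windows hold them. The AP-1 letters TGANTCA stood in C3ar1 from -22 to -16 and in none of the other 5 windows, against 6.75% of all windows. The C/EBP letters TTGCNNAA stood in C3 from -45 to -38, against 9.56% of all windows. The composite ETS-IRF element stood in none of the 6 windows and in 2.30% of all windows.

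Of the 9 genes, C5ar1 passed the test between the populations and was lower in foamy libraries, while C3ar1, the receptor of the other anaphylatoxin, lay higher in all 3 foamy libraries with TMM scaling, but not by deposited RPKM, and did not pass it. The C1q genes were among the most abundant transcripts of both populations, and their groups overlapped. C3 and C4b had few counts and Cfb nearly none. Of 11303 genes that edgeR tested, 611 (5.41%) were called at a threshold of 0.05, 283 of them higher in foamy libraries (2.5% of genes tested) and 328 lower (2.9%). Scaled by total counts only, 165 were higher and 614 lower, and the median log2 fold change of all genes moved from -0.04 to -0.31. The groups did not overlap in 25.7% of genes tested, 12.4% with foamy higher and 13.3% with foamy lower. Among the 9 genes, 8 passed the low-count filter, 1 was called (lower) and 2 had groups that did not overlap, 1 in each direction; by deposited RPKM, which is scaled to the library total, only C5ar1 of the 8 did not overlap. In bulk samples, fewer cells of a type and less RNA per cell cannot be told apart.

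**Figure D1:**
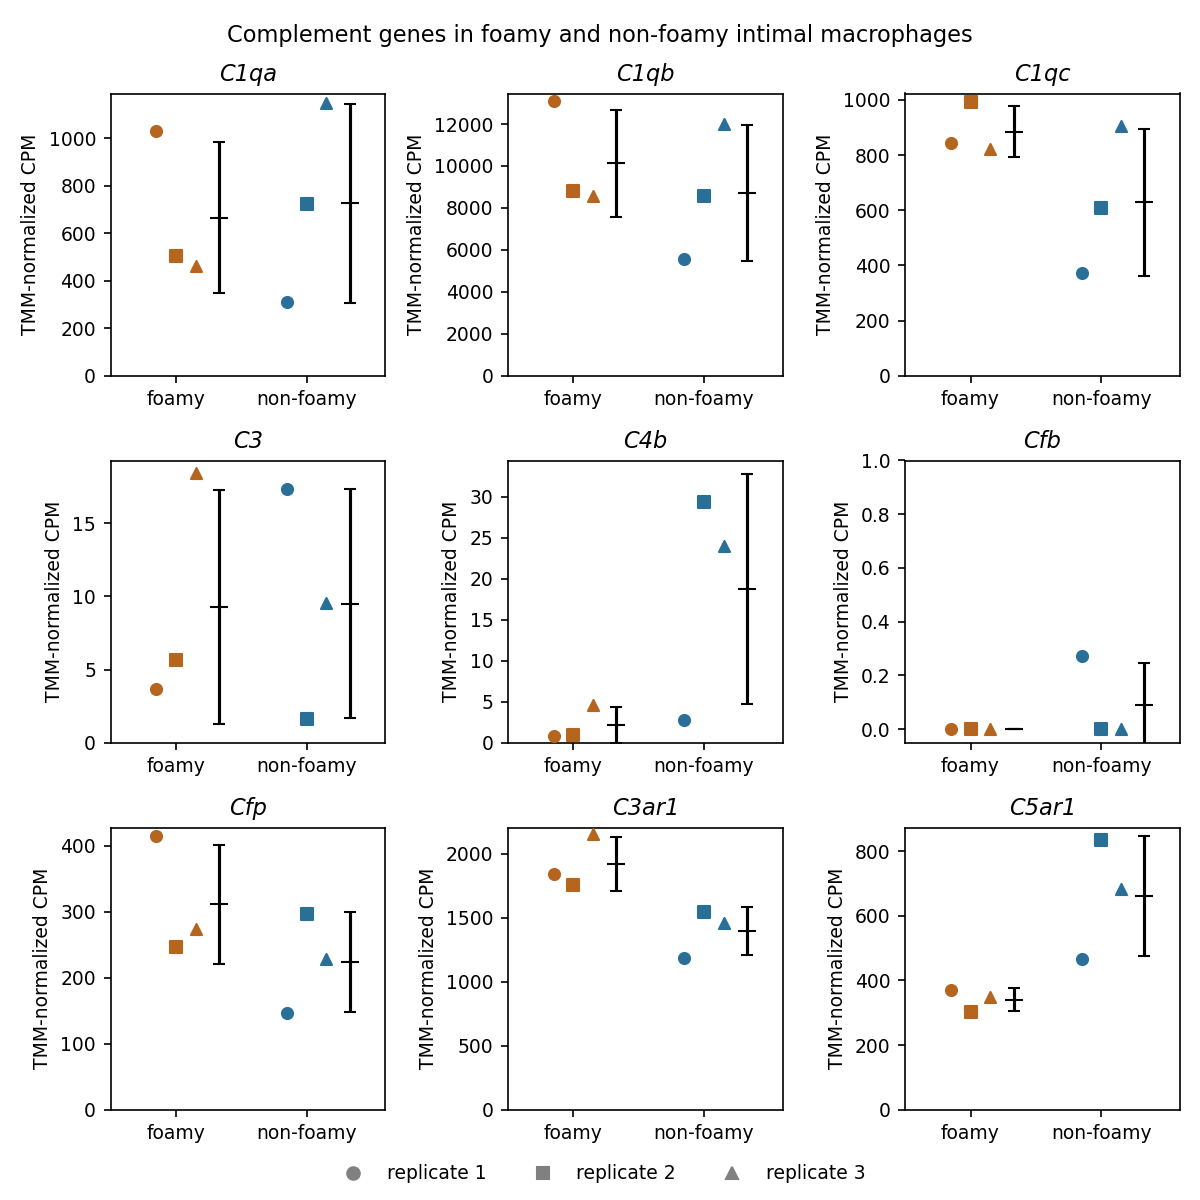
TMM-normalized CPM (y axis, from 0 except in the Cfb panel, which starts just below it) of the 9 complement genes in the 3 foamy and 3 non-foamy libraries; points are libraries, marked by replicate number, and the bar beside them is the mean with the SD, drawn down to the axis limit where it passes it (C4b and Cfb). The C5ar1 values of the foamy libraries, 302 to 370, all lie below those of the non-foamy libraries, 466 to 833, while the C1q values of the groups overlap.

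C1qb, which encodes the B chain, was the most abundant of the 9 genes. It stood at 13076, 8793 and 8544 CPM in the foamy set. In the non-foamy set it stood at 5555, 8569.8 and 12019 CPM. The groups overlapped, and the non-foamy libraries alone spanned 2.16-fold, against 1.16-fold between the groups, whose means were 10138 ± 2548 CPM (SD, n = 3) for foamy and 8715 ± 3234 CPM for non-foamy libraries. The log2 fold change, foamy over non-foamy, was 0.22 (SE 0.27, 95% interval -0.38 to 0.82, edgeR adjusted p = 0.76). Its sign turned with total counts as the only scaling (-0.04) and without foamy replicate 1 (-0.0015) or non-foamy replicate 1 (-0.03).

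C1qa encodes the A chain. It stood at 1030.3, 504 and 461 CPM in the foamy set and at 309, 721 and 1146 CPM in the non-foamy set. The lowest and the highest of the 6 values were both non-foamy, a 3.71-fold span within 1 group. The log2 fold change was -0.13 (SE 0.42, 95% interval -1.05 to 0.80, edgeR adjusted p = 0.93), and it was above 0 when foamy replicate 2 (0.05), foamy replicate 3 (0.09) or, in the other group, non-foamy replicate 3 (0.38) was left out.

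C1qc encodes the C chain. It stood at 843, 992 and 822 CPM in the foamy set and at 373, 607 and 904 CPM in the non-foamy set. Its foamy values lay within 1.21-fold of each other, and 2 of the 3 non-foamy values lay below all of them. The log2 fold change was 0.50 (SE 0.27, 95% interval -0.10 to 1.09, edgeR adjusted p = 0.38). It did not pass the test under any of 13 alternatives, whose adjusted p ran from 0.075 to 0.64.

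The C1q genes lie side by side on chromosome 4 of GRCm38, all on the minus strand: C1qb from 136880129 to 136886187, C1qc from 136889804 to 136893065 and C1qa from 136895917 to 136898803. They shared their extreme non-foamy libraries, since replicate 1 was the lowest and replicate 3 the highest of that group for each of them. Non-foamy replicate 1 was also the lowest non-foamy library for C4b, Cfp, C3ar1 and C5ar1. That library had the most genes with a count, 24701 against 15595 to 20538 in the others, and the highest TMM factor, 1.186; their part in the low values was not tested. Together the 3 C1q genes took 1.30%, 0.993% and 0.883% of all counts in the foamy set and 0.737%, 1.07% and 1.45% in the non-foamy set.

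Across the 6 libraries, Pearson's r of log2(CPM + 1) with C1qb was 0.934 for C1qa and 0.791 for C1qc, which ranked 48 and 453 among 6045 genes with a mean of at least 10 CPM. These r values are descriptions over 6 libraries that share groups and scaling. The 3 genes most like C1qb were Mien1 (r 0.992), Hikeshi (0.981) and Pycard (0.974), the last of which encodes the inflammasome adaptor ASC. Pycard stood at 149, 117 and 115 CPM in foamy and 91.3, 123 and 158 CPM in the non-foamy set.

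The chains differed in level per length, as given by the deposited RPKM (reads scaled to exon length and library size). C1qb ranked between 5 and 9 among all 41388 genes by RPKM in the 6 libraries. Its RPKM was 8428 ± 1773 in foamy and 8639 ± 2687 in non-foamy libraries (SD, n = 3). C1qa was at 575 ± 249 and 745 ± 393 RPKM, and C1qc at 419 ± 66.6 and 350.0 ± 128 RPKM, in the same order. The C1qb level was 10.0 to 17.7 times that of C1qa and 15.7 to 27.5 times that of C1qc within a library. C1qa and C1qc themselves overlapped in both groups. No 50-base window of the GENCODE M21 transcripts of the C1q genes occurs in a transcript of another gene, and none of their exons overlaps one in the deposited tables.

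**Figure D2:**
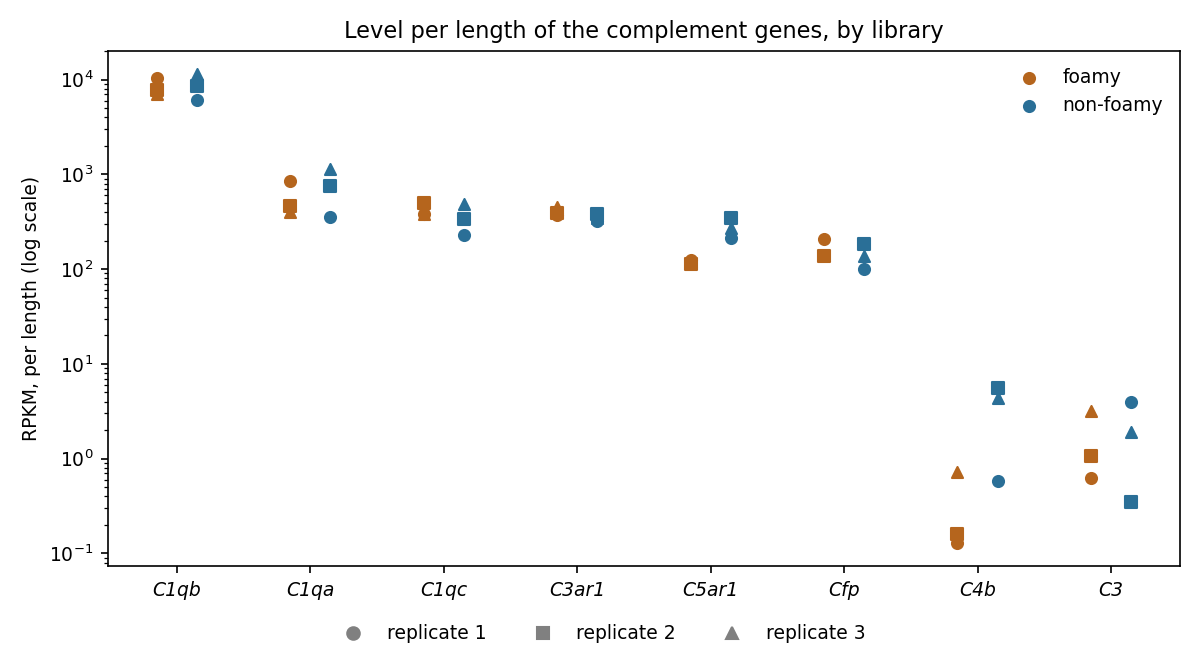
RPKM (log axis) of 8 of the complement genes in each library, ordered by the mean over all 6 libraries; colours are the groups and marks the replicate numbers, and Cfb, at 0 in 5 libraries, is left out. C1qb lies between 6032 and 11399 RPKM, C1qa, C1qc and C3ar1 lie between 228 and 1137 RPKM, and C3 and C4b below 6 RPKM.

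By level per length, C3ar1 stood at 405 ± 40.5 RPKM in foamy and 354 ± 31.0 RPKM in non-foamy libraries, and its range overlapped that of C1qc in both groups. The order of C5ar1 and Cfp differed between the groups. In foamy libraries C5ar1 lay below Cfp in all 3 libraries, at 120.1 ± 6.12 against 162 ± 39.2 RPKM, and in non-foamy libraries above it in all 3, at 279 ± 67.6 against 140.1 ± 42.5 RPKM. C4b and C3 came far below, at 0.341 ± 0.339 and 1.64 ± 1.39 RPKM in foamy libraries and 3.50 ± 2.59 and 2.08 ± 1.82 RPKM in non-foamy libraries, and their ranges overlapped in both groups.

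C5ar1 encodes the receptor of C5a, which draws and activates myeloid cells. It stood at 370.2, 302 and 349.6 CPM in the foamy set. In the non-foamy set it stood at 466, 833 and 683 CPM. All 3 foamy values lay below all 3 non-foamy values, and the foamy values were the tighter, within 1.23-fold of each other against 1.79-fold. C5ar1 was 1.94-fold lower in foamy libraries (log2 fold change -0.96, SE 0.22, 95% interval -1.44 to -0.48, edgeR adjusted p = 0.029). The direction held under all 13 alternatives, but the call did not: leaving out foamy replicate 1 (-1.01), 2 (-0.87) or 3 (-0.97), or replicate 2 (-0.75) or 3 (-0.92) of the non-foamy set, was among the changes that ended it, and adjusted p ran from 0.0015 to 0.15 over the alternatives. The monocyte markers given above were also higher in the non-foamy libraries. Within the foamy set, C5ar1 was highest in replicate 1, where those markers had their lowest sum, 24.3 CPM. Within the non-foamy set, both were highest in replicate 2. The part of monocytes in the C5ar1 difference was not tested.

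C3ar1 encodes the receptor of C3a. It stood at 1844, 1757 and 2158 CPM in the foamy set and at 1182, 1543 and 1461 CPM in the non-foamy set. With TMM scaling the groups did not overlap, and the spread within each was 1.23-fold in foamy and 1.31-fold in non-foamy libraries. By deposited RPKM they overlapped, with 372, 394 and 450.2 in the foamy set and 324, 386 and 350.2 in the non-foamy set, and with total counts only the log2 fold change was 0.19. The log2 fold change of 0.46 (SE 0.18, 95% interval 0.07 to 0.85) had an unadjusted p of 0.024 but did not pass after adjustment over all genes (edgeR adjusted p = 0.18, with alternatives from 0.12 to 0.54). C5ar1 lies on chromosome 7 from 16246743 to 16259540 and C3ar1 on chromosome 6 from 122847138 to 122856161, both on the minus strand.

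Because a ratio of counts within a library does not depend on scaling between libraries, the receptors were also compared in that way. The log2 ratio of C5ar1 to C3ar1 counts was -2.32, -2.54 and -2.63 in foamy and -1.34, -0.89 and -1.10 in the non-foamy set. Foamy libraries held less C5ar1 per C3ar1 in every case, by 1.39 on the log2 scale on average, or 2.61-fold. An exact two-sided permutation test gave p = 0.1, the smallest that 3 libraries against 3 allow, and 0.48 after adjustment over the 6 ratios computed. The other 5 ratios overlapped between the groups. The C1qa to C1qb ratio averaged -4.00 ± 0.29 in foamy and -3.71 ± 0.41 in non-foamy libraries (SD, n = 3, exact permutation p = 0.3), and the C1qc to C1qb ratio -3.49 ± 0.42 and -3.82 ± 0.08 (exact permutation p = 0.4).

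**Figure D3:**
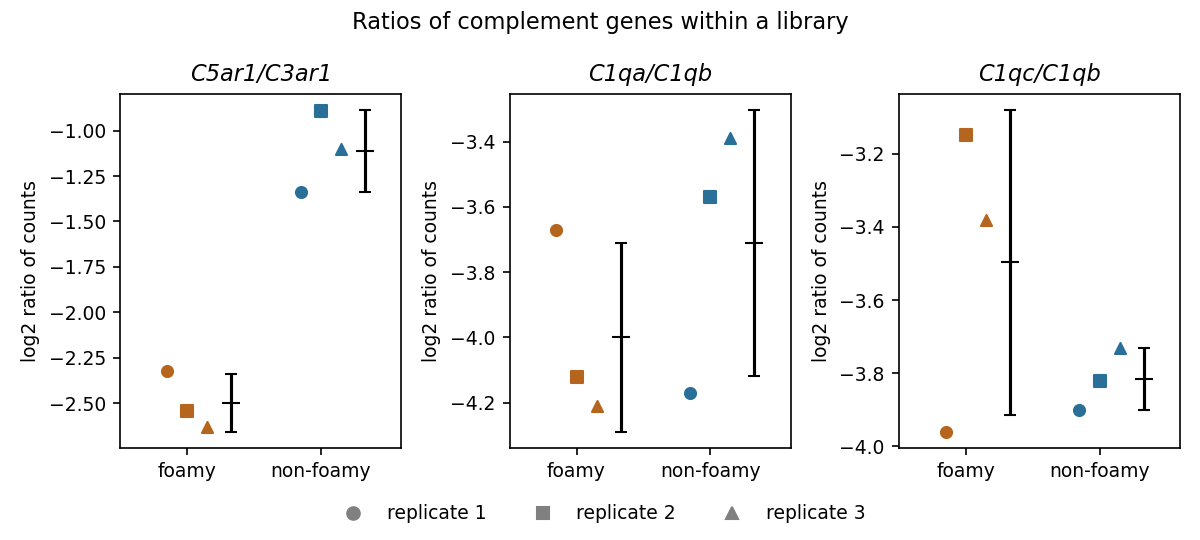
Log2 ratio of counts within a library (y axes, which do not start at 0) for C5ar1 over C3ar1, C1qa over C1qb and C1qc over C1qb; points are libraries, marked by replicate number, and the bars are the mean with the SD of 3 libraries. The C5ar1 over C3ar1 ratio lies at or below -2.32 in all foamy and at or above -1.34 in all non-foamy libraries, while the C1q ratios of the groups overlap.

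The 3 genes most like C5ar1 over the 6 libraries were Fcgr2b (r 0.996), which encodes the inhibitory Fc gamma receptor, the immediate early gene Ier2 (0.992), and Fcgrt (0.986), which encodes the neonatal Fc receptor. Fcgr2b stood at 345, 285 and 300 CPM in foamy and 409, 660.4 and 572 CPM in the non-foamy set (log2 fold change -0.82, edgeR adjusted p = 0.041). Ier2 stood at 3.90 to 5.65 CPM in the foamy set and 10.6 to 31.4 CPM in the non-foamy set (log2 fold change -2.21, edgeR adjusted p = 0.018). Fcgrt missed the threshold (log2 fold change -0.86, edgeR adjusted p = 0.06). These genes were picked by r with C5ar1 over the same libraries, so their lower level in foamy libraries follows in part from that choice.

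Cfp encodes properdin, which stabilizes the alternative convertase and is made by leukocytes rather than the liver. It stood at 414, 246 and 274 CPM in the foamy set and at 147, 297 and 229 CPM in the non-foamy set. Foamy replicate 1 was the highest and non-foamy replicate 1 the lowest, and the rest overlapped. The log2 fold change was 0.47 (SE 0.27, 95% interval -0.13 to 1.08, edgeR adjusted p = 0.41), with alternatives from 0.21 to 0.73.

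C3, the protein on which all complement pathways converge, had 78, 102 and 342 counts in foamy and 320, 30 and 243 counts in the non-foamy set. That is 3.70, 5.68 and 18.4 CPM and 17.3, 1.65 and 9.56 CPM. The spread within the groups was 4.98-fold and 10.5-fold, and the log2 fold change was -0.04 (SE 0.78, 95% interval -1.76 to 1.68, edgeR adjusted p = 0.99), so a difference of 2-fold either way was not resolved for C3 at this spread. The 3 libraries with the highest C3, foamy replicate 3 and non-foamy replicates 1 and 3, were the 3 with fibroblast markers above 100 CPM in sum. In the remaining 3 libraries those markers summed to at most 13.5 CPM and C3 stood at 5.68 CPM or less. In the 3 libraries above 100 CPM, most of the sum was Lum or Dcn. Lum stood at 132 CPM in foamy replicate 3 and 71.2 CPM in non-foamy replicate 1, and Dcn at 266 CPM in non-foamy replicate 3. Col1a1 and Col1a2 were also highest in those 3 libraries, whereas Col3a1, Pdgfra and Pi16 were not. These genes were named after their values were seen. The smooth muscle markers given above were highest in the same 3 libraries as C3, and the part of either cell type in the C3 values was not tested. The genes most like C3 were Wdr37 (r 0.99), Irf5 (0.98), a transcription factor of macrophage activation, and Cand1 (0.972), none of which passed the test (edgeR adjusted p = 0.96, 0.95 and 0.87).

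C4b encodes the C4 protein, whose cleavage product forms the classical convertase with C2. It had 18, 17 and 86 counts in the foamy set and 52, 534 and 609 counts in the non-foamy set. In CPM, it stood at 0.854, 0.947 and 4.64 in the foamy set and at 2.82, 29.4 and 24.0 in the non-foamy set. Non-foamy replicates 2 and 3 stood well above the other 4 libraries, and non-foamy replicate 1 lay below foamy replicate 3. The log2 fold change was -3.12 (SE 0.88, 95% interval -5.07 to -1.18), with an edgeR adjusted p of 0.068 that missed the threshold. It passed under 5 of 13 alternatives, among them without non-foamy replicate 1 (-3.64, edgeR adjusted p = 0.021), and adjusted p ran from 3.1e-06 to 0.23. Of the 2 high C4b libraries, non-foamy replicate 3 had the highest fibroblast sum of all, 307 CPM, and non-foamy replicate 2 had 13.5 CPM. Dendritic cell markers (6 genes, 1 tested and 0 called) summed to 0.332, 16.0 and 2.37 CPM in foamy and 197, 253 and 33.1 CPM in the non-foamy set. Most of the non-foamy sum was 1 gene, Cd209a, at 178, 249 and 32.2 CPM. Clec9a went the other way, at 1.23 and 1.78 CPM in foamy replicates 2 and 3 and at 0 in the other libraries. Both were named after their values were seen, and the part of these markers' cells in the C4b values was not tested.

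**Figure D4:**
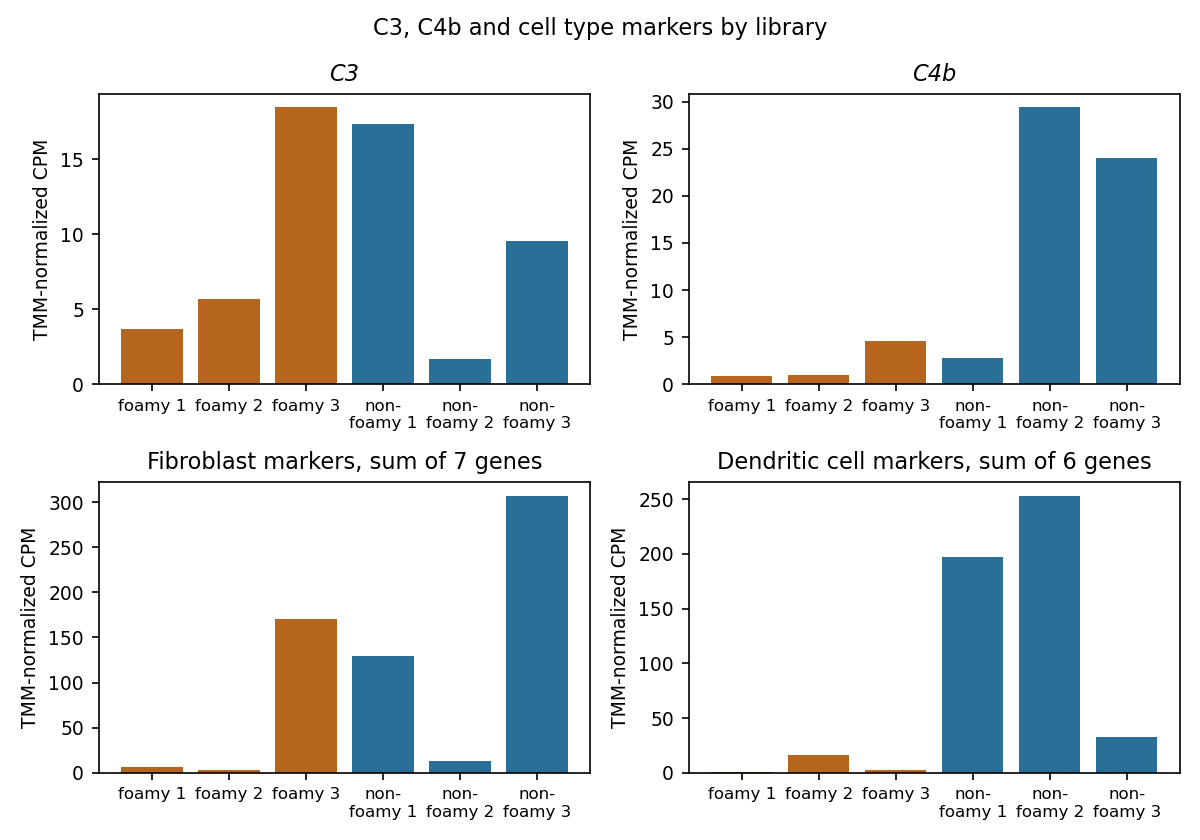
TMM-normalized CPM (bars from 0) of C3, C4b, the sum of 7 fibroblast markers and the sum of 6 dendritic cell markers in each of the 6 libraries. Most of the dendritic cell sum in the non-foamy libraries is Cd209a, and most of the fibroblast sum in the libraries above 100 CPM is Lum or Dcn. C3 is highest in the 3 libraries with fibroblast markers above 100 CPM, whereas C4b is highest in non-foamy replicates 2 and 3, at 29.4 and 24.0 CPM.

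C3, C4b and Cfb lie on the minus strand of chromosome 17, from 57203970 to 57228136, 34728380 to 34743882 and 34856374 to 34862518, and Cfp on that of chromosome X, from 20925454 to 20931555. Neighbouring genes that share sequence limit C4b and Cfb. Of the 50-base windows of C4b transcripts in GENCODE M21, 34.6% also occur in C4a, its near-identical neighbour, which had 0, 0, 0, 7, 3 and 2 counts in the 6 libraries. How reads that map to both genes were counted is not stated, so the C4b counts are uncertain to that extent. Cfb shares 2246 of its 2825 exon bases (79.5%) with Gm20547 on the same strand. All 3902 exon bases of Gm20547 lie in exons of Cfb or C2, and it had 0 counts in every library.

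Cfb itself had 0 counts in 5 libraries and 5 counts, all from non-foamy replicate 1. In foamy libraries, 0 of 63513964 counts allow a level of up to 0.0472 CPM by a limit of 3 counts, or 0.0581 CPM by the upper end of the exact Poisson 95% interval. The 5 counts in non-foamy libraries correspond to 0.0875 CPM with an exact Poisson 95% interval of 0.0284 to 0.204 CPM, which covers counting error only. With 579 exon bases free of Gm20547, and the counting of the shared bases not stated, these values cover only what was counted as Cfb, and Cfb was not tested. C2, the classical counterpart of factor B, which overlaps the same locus, had 11 counts in foamy and 19 in non-foamy libraries.

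A wider list of 57 complement genes, the 9 included, was read from the same fit by role. Of these, 27 passed the low-count filter, 3 were higher and 2 lower in foamy libraries, beside the 5.41% called among all genes, and 2 had no count in any library. The 3 that rose were Cd59a, Cd93 and Calr, and the 2 that fell were C5ar1 and Itgam. The median log2 fold change of the 27 was 0.22, beside -0.04 for all genes tested. These counts changed when 1 library was left out. With foamy replicate 1, 2 or 3 or non-foamy replicate 3 left out, 1 gene of the list was called. Without replicate 2 of the non-foamy set 2 genes were called, and without its replicate 1 there were 7. Calls over all genes also fell, from 611 to between 271 and 579, with 1 library left out.

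Membrane regulators protect cells from their own complement. Cd59a encodes an inhibitor of the membrane attack complex and stood at 31.6, 38.5 and 22.7 CPM in foamy and 6.39, 16.0 and 8.90 CPM in the non-foamy set, 2.97-fold higher in the former (log2 fold change 1.57, SE 0.39, edgeR adjusted p = 0.042). Total counts as the only scaling (1.32) ended the call, as did leaving out any foamy library (1.56, 1.39 and 1.76 for replicates 1 to 3) or replicate 1 (1.31) or 3 (1.48) of the non-foamy set. Cr1l, which encodes the rodent regulator Crry and was the most abundant of this role, stood at 113 to 132 CPM in the foamy set and 82.7 to 123 CPM in the non-foamy set and did not pass (edgeR adjusted p = 0.50).

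Among soluble regulators, Serping1, which encodes the C1 inhibitor, had 0, 3 and 72 counts in the foamy set and 26, 43 and 108 counts in the non-foamy set, with overlapping groups (log2 fold change -0.99, SE 1.4, edgeR adjusted p = 0.79). Without foamy replicate 3 the Serping1 value was -4.94, and with limma-voom -3.39, neither past the threshold. Clu, which encodes clusterin, an inhibitor of the terminal complex, stood at 2.52, 1.11 and 21.7 CPM in foamy and 14.5, 3.03 and 8.86 CPM in the non-foamy set, highest in the same 3 libraries as C3 and the fibroblast markers (log2 fold change -0.06, edgeR adjusted p = 0.99).

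Among receptors of C3 fragments and C1q, 8 of 9 genes were tested. Cd93, a surface glycoprotein once described as a C1q receptor, stood at 288, 308 and 346 CPM in foamy and 135, 162 and 151 CPM in the non-foamy set, 2.11-fold higher in the former (log2 fold change 1.08, SE 0.17, edgeR adjusted p = 0.0048). Its call held under all 13 alternatives. Calr encodes calreticulin, an endoplasmic reticulum chaperone that also binds C1q, and stood at 529 to 644 CPM in the foamy set and 331 to 376 CPM in the non-foamy set (log2 fold change 0.73 with SE 0.17, edgeR adjusted p = 0.029). For Calr, total counts as the only scaling (0.46), the loss of any foamy library (0.82, 0.71 and 0.68 for replicates 1 to 3) and the loss of replicate 2 (0.76) or 3 (0.77) of the non-foamy set were among the changes that ended the call.

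Complement receptor 3 joins the products of Itgam and Itgb2, and these took opposite signs. Itgam, whose protein CD11b was also a sorting antigen, stood at 70.3, 85.9 and 77.3 CPM in foamy and 127, 148 and 151 CPM in the non-foamy set (log2 fold change -0.87, SE 0.19, edgeR adjusted p = 0.023). Among the alternatives, that call did not hold with no low-count filter (-0.78), nor after the loss of any foamy library (-0.80, -0.94 and -0.86 for replicates 1 to 3) or of replicate 2 (-0.84) or 3 (-0.81) of the non-foamy set. In GENCODE M21, 66.3% of the Itgam windows also occur in Gm49368, but in the deposited tables no Itgam exon overlaps an exon of another gene. Itgb2, the shared beta chain, stood at 438 to 597 CPM in the foamy set and 255 to 424 CPM in the non-foamy set and did not pass (log2 fold change 0.66, SE 0.22, edgeR adjusted p = 0.12). It passed without non-foamy replicate 1 (0.91), with DESeq2 (0.67) and with no low-count filter (0.79).

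The remaining list genes named here were at low counts, and none of them passed the test. Lectin pathway genes had 2 of 9 tested: Fcna, encoding ficolin A, at 2.91 to 8.26 CPM in the foamy set and 2.92 to 9.05 CPM in the non-foamy set, and the collectin gene Colec12 at 1.33 to 4.23 and 0.0787 to 8.18 CPM. Terminal components had 2 of 7 tested, C8g and C9, and neither exceeded 2.09 CPM in any library. C5ar2, the second C5a receptor, named here after its values were seen, stood at 0.332 to 2.16 CPM in the foamy set and 1.27 to 2.60 CPM in the non-foamy set (log2 fold change -0.94, SE 1.00, edgeR adjusted p = 0.71). Of the serine proteases that C1q activates, encoded by C1r and C1s genes, only C1ra, named after its values were seen, was tested, at up to 18 counts in any library, and 50.8% of its windows occur in other genes, mainly C1rb.

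**Figure D5:**
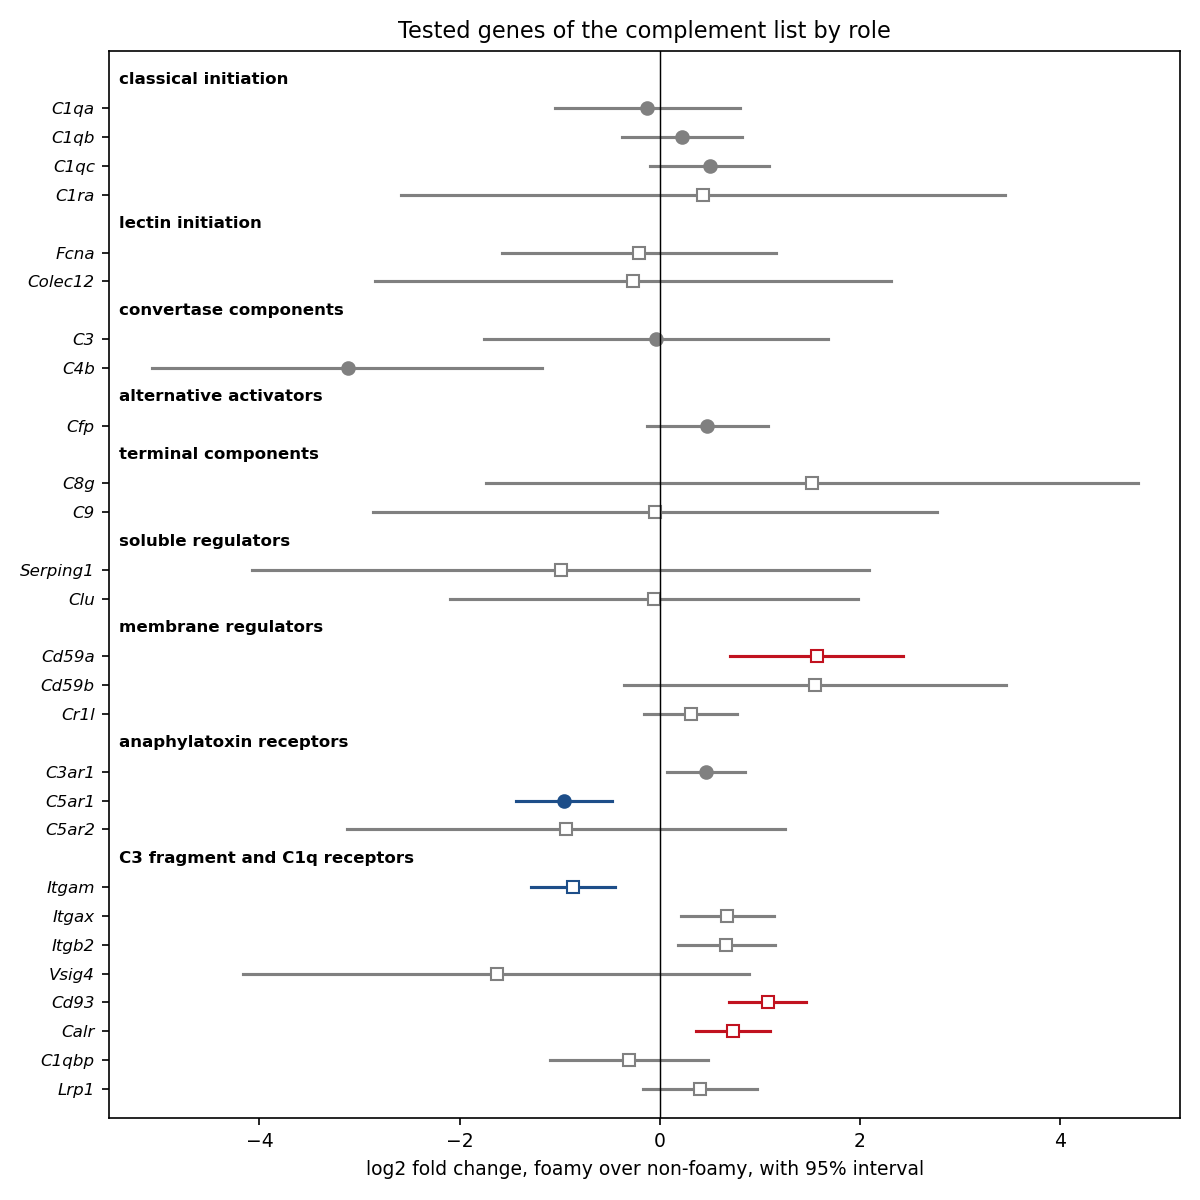
Log2 fold change, foamy over non-foamy (x axis), of the 27 tested genes of the complement list with 95% intervals, by role; filled circles are the 8 tested genes of the named 9, open squares the other list genes, red is called higher and blue called lower. Most intervals include 0; those of Cd59a, Cd93 and Calr lie above it and those of C5ar1 and Itgam below it, while the intervals of C3ar1, C4b, Itgb2 and Itgax (the last named after its values were seen) exclude 0 without a call after adjustment.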

How the data were processed

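Reads were counted per gene by the authors; STAR 2.0.4b, Subread, featureCounts 1.4.5 and GRCm38 stand in the submitters' processing notes, with no mention here of strandedness or of reads mapping to several places. Libraries were made with a SMARTer Ultra Low kit and sequenced as 50-base single reads, per the labels' protocols. The deposited counts are whole reads per gene. The deposited CPM values equal counts scaled to the library total, and the deposited RPKM values are that quantity divided by exon length, both checked on every gene to a tolerance of 1e-06.

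Tests used edgeR 4.0.16 in R 4.3.3: filterByExpr, TMM factors, a robust quasi-likelihood fit, and Benjamini-Hochberg adjusted p over the 11303 genes that passed, called at 0.05. The SE came from the log2 fold change and its F statistic. Symbols were found for 97.26% of gene IDs. 1 gene of the wider list is not reported here. The members and lists were chosen with earlier results of these data known. The text names the 9 genes, list genes that were called, the 2 tested genes with the highest mean RPKM of each role, and the 3 genes most like C1qb, C3 and C5ar1 (mean of at least 10 CPM, no predicted Gm names). Each count in a ratio had 0.5 added. The alternatives were RLE factors, total counts, DESeq2 1.42.0, limma-voom (limma 3.58.1), no low-count filter, a stricter filter (10 counts in 3 libraries and 5 CPM on average), a replicate block, and each library left out. Tested on simulated data (200 genes changed, 11161 tested), edgeR called 4.1% of genes changed 2-fold, 32.7% of those changed 4-fold and 90.0% of those changed 8-fold. Of its calls, 2.6% were false. Every simulated gene had the same spread between libraries (a biological coefficient of variation of 0.51), so these rates need not apply to genes of other spread. No 2 replicates were alike to within counting noise; chi-square per degree of freedom was 50.74 or more.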

Additional observations from a re-analysis of the deposited data

How the results depend on the processing

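Over the 13 alternatives, C1qc, C3ar1 and Cfp kept their direction and stayed short of the threshold, and Cd93 kept its call. C5ar1 kept its direction throughout, from -1.22 to -0.75, and its call in 7 of 13; leaving out 1 library at a time gave -1.16 to -0.75, and the replicate block gave -0.92 (adjusted p = 0.091). C4b passed with total counts only (-3.36), with DESeq2 (-3.13), with no low-count filter (-3.07) and with the replicate block (-2.96, adjusted p = 0.048), and ran from -4.36 to -2.64 with 1 library left out. C1qb turned to -0.04 with total counts only and ran from -0.03 to 0.53 with 1 library left out (-0.0015 without foamy replicate 1). C1qa ran from -0.58 to 0.38 with 1 library left out. C3 turned to 0.08 with limma-voom, 0.12 with no filter and 0.25 with the replicate block, and ran from -1.01 to 0.71 with 1 library left out.

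The count of genes called, 611, was 1163 with DESeq2, 391 with the replicate block and 271 to 579 with 1 library left out. Genes called higher, 283, became 165 with total counts only, 521 with DESeq2, 457 with no filter, 159 with the replicate block and 113 to 285 with 1 library left out. Genes called lower, 328, became 614 with total counts only, 642 with DESeq2 and 158 to 294 with 1 library left out. In the complement list, 5 calls became 8 with DESeq2, 8 with no filter, 3 with the replicate block and 1 to 7 with 1 library left out. Its 3 higher calls became 1 with total counts only, 5 with DESeq2, 5 with no filter and 1 to 4 with 1 library left out, and its 2 lower calls 1 with the replicate block and 0 to 3 with 1 library left out. The calls of Itgam (-0.87, adjusted p = 0.082) and Calr (0.73, adjusted p = 0.11) were also lost with the replicate block. The cause of these changes was not tested.

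Directions of low genes also turned. Colec12 was 1.5 with limma-voom, 1.35 with the replicate block and -0.83 to 2.03 with 1 library left out. C9 was 0.33 with limma-voom, 0.0031 with no filter, 0.20 with the replicate block and -0.58 to 1.68 with 1 library left out. Serping1 kept its sign but ran from -4.94 to -0.40 with 1 library left out and was -3.06 with the replicate block. Clu was 0.09 with no filter and -2.26 to 0.50, Fcna was -0.76 to 0.26, and the log2 ratio of Cfp to C3 was -0.65 to 1.54 with 1 library left out. The labels do not state whether a replicate number marks shared mice. Deviations of same-numbered libraries correlated at -0.071, -0.023 and -0.031, and those of other pairs at -0.032 to 0.063. These r values cannot show whether same-numbered libraries share mice. At the C3, C4b and Cfb counts given, the spread between libraries and the few reads limit what can be resolved.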
